A study of Mus musculus with 9 samples.

Results

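The small nucleolar RNAs (snoRNAs) of mouse oocytes were taken as every gene whose symbol begins with Snord or Snora, which gave 105 of the 23235 genes listed. Of these, 69 are box C/D genes (Snord) and 36 are box H/ACA genes (Snora). Total RNA was sequenced from the nucleus and the cytoplasm of day 21 oocytes, separated by micromanipulation, with 10 nuclei or 10 cytoplasms in each sample. The groups are MTR4-null nucleus, for which the labels list 2 libraries, wild-type (WT) nucleus (3 libraries), MTR4-null cytoplasm (2) and WT cytoplasm (2). The design text speaks of duplicates, so that how many libraries stand behind the WT nucleus column is unclear. The labels name neither the strain nor the way the null allele was made. Each group is represented by a single column of FPKM, so that no difference below has a replicate check, a standard deviation or a p-value.

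Box C/D snoRNAs guide methylation of the ribose of ribosomal RNA, and box H/ACA snoRNAs guide the change of uridine to pseudouridine. Most mammalian snoRNAs lie in introns of host genes and are cut free from the spliced intron, after which exonucleases trim their ends up to the bound core proteins. MTR4 is the RNA helicase that feeds nuclear transcripts, among them the extended 3′ ends of snoRNA precursors, to the RNA exosome. Reads from an unspliced host transcript that cross a snoRNA and reads from the mature snoRNA cannot be told apart in a gene-level value.

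The targeted gene, listed as Skiv2l2, had 2.91 FPKM in the MTR4-null nucleus against 16.2 FPKM in the WT nucleus. In the cytoplasm it had 2.51 FPKM in MTR4-null and 21.6 FPKM in WT. All 10 oocyte markers examined were at 1 FPKM or more in every column. The 11 granulosa cell markers summed to 35.9 FPKM in MTR4-null and 60.8 FPKM in WT nuclei, and to 30.7 FPKM in MTR4-null and 39.3 FPKM in WT cytoplasms. Small RNA genes of all kinds made up 53.5% of the summed FPKM in MTR4-null and 57.7% in WT nuclei, against 39.0% in MTR4-null and 4.09% in WT cytoplasms. In bulk samples a lower value through fewer contributing cells and one through less RNA per cell cannot be told apart.

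The letters of the members that carry the results below are shown first, 5′ to 3′, as DNA copies of the GENCODE M21 transcripts on build GRCm38. In box C/D members the capitals mark the C box TGATGA where it lies within the first 25 bases, and the D box CTGA where it lies within the last 25 bases. In box H/ACA members the capitals mark the last ACA within the last 10 bases. The first 3 are the box C/D members with a value above 0 in all 4 columns, and the next 4 are box C/D members whose values bear on how the table was made. The last 3 are H/ACA members: the most abundant, a member with opposite differences in the 2 compartments, and a member seen in the WT nucleus only.
Snord17: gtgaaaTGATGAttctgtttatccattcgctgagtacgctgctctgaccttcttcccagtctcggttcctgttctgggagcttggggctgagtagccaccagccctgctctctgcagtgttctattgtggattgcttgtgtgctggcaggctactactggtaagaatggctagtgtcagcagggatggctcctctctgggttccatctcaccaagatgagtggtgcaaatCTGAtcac
Snord22: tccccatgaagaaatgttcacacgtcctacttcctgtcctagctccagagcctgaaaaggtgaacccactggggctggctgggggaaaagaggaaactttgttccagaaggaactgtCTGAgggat
Snord15a: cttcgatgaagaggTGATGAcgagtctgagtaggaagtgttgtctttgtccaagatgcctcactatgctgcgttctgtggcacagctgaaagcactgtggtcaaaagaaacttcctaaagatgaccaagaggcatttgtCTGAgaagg
Snord100: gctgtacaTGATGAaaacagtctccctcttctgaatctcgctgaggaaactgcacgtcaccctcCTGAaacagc
Snord2: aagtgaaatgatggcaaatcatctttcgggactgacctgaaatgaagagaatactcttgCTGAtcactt
Snord85: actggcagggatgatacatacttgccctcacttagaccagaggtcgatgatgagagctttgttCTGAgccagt
Snord90: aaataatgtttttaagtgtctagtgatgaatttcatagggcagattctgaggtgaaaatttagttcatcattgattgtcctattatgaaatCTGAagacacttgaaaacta
Snora47: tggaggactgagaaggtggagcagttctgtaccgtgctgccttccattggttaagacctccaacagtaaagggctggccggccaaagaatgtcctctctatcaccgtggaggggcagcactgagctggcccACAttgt
Snora78: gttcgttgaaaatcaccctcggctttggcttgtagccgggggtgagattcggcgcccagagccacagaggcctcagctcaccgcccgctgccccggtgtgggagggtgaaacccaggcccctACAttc
Snora61: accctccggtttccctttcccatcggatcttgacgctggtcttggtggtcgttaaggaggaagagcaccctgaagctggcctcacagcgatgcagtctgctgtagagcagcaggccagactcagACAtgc

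Snord17 lies at chr2:144265979-144266216 on the minus strand, in an intron of Snx5. Snord22 lies at chr19:8725866-8725991 on the plus strand, inside an exon of a transcript of the noncoding host Snhg1. Snord15a lies at chr7:99482785-99482932 on the minus strand, in an intron of the ribosomal protein gene Rps3. Snora47 lies at chr13:95330600-95330737 on the plus strand in an intron of Zbed3, and Snora78 at chr17:24719676-24719803 on the minus strand in an intron of the noncoding Snhg9. Snora61 lies at chr4:132310240-132310369 on the plus strand, inside an exon of a transcript of the noncoding Snhg12. On the same strand, 36 of 65 box C/D members with a host were intronic in every host transcript, 25 lay inside an exon of at least 1 host transcript and 4 were partly exonic. Of 32 H/ACA members with a host 14 were intronic in every host transcript, 15 lay inside an exon of at least 1 and 3 were partly exonic.

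The letters separated the classes by the names they carry. Of the 67 box C/D members with a single GENCODE transcript, 43 (64.2%) held the C box in its window and 66 (98.5%) the D box. Of the 34 such H/ACA members none held the C box, 4 (11.8%) held the D box and 32 (94.1%) held an ACA in its window. Among all 1507 snoRNA transcripts of the annotation, the transcript strand held the C box in 21.8%, the D box in 57.5% and the ACA in 47.4%. Snord22, Snord2, Snord85, Snord34 and Snord90 had no match to TGATGA in the first 25 bases. Such a match is a description of these letters, and a missing one says only that they are not in that window.

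The 2 classes differed in how many members had any value at all. In the MTR4-null nucleus 31 of 69 box C/D members were listed at 0 and 38 were above 0, against 54 at 0 and 15 above 0 in the WT nucleus. The MTR4-null cytoplasm had 56 box C/D members at 0 and 13 above 0, and the WT cytoplasm 66 at 0 and 3 above 0. Box H/ACA members were listed mostly above 0, with 33 of 36 above 0 in the MTR4-null nucleus and 30 in the WT nucleus. There were 28 H/ACA members above 0 in the MTR4-null cytoplasm and 9 in the WT cytoplasm. Of all genes in the table, 19.9% were listed at 0 in the nucleus of MTR4-null and 26.9% in that of WT oocytes, and 22.8% in MTR4-null and 25.6% in WT cytoplasm. MicroRNA genes were also above 0 more often in MTR4-null. Of 615 in the table, 111 were above 0 in MTR4-null nuclei and 50 in WT nuclei, and the cytoplasms had 56 in MTR4-null and 41 in WT.

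**Figure D1:**
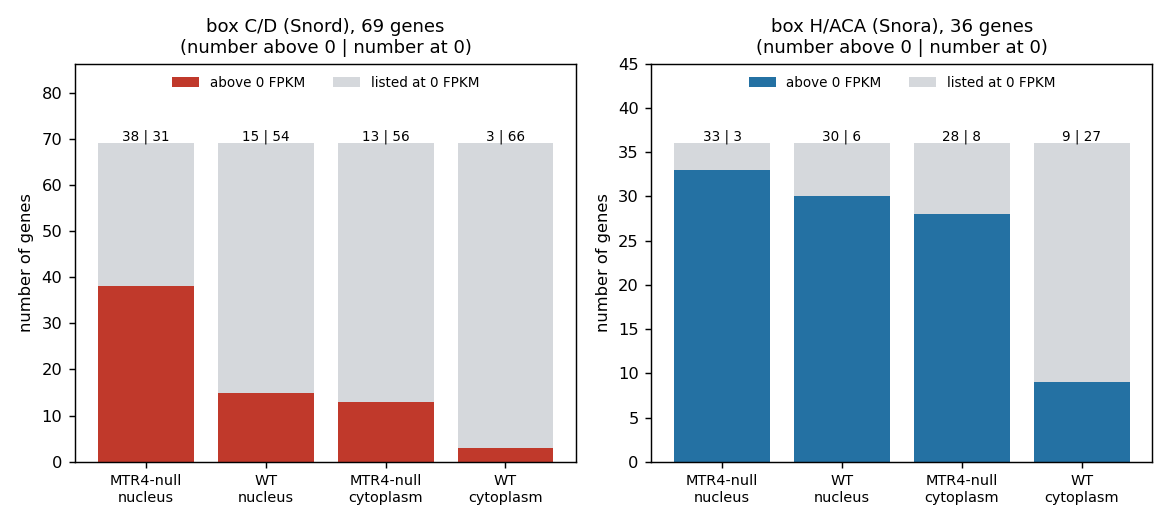
Bars count the box C/D genes (left panel) and box H/ACA genes (right panel) above 0 FPKM and listed at 0 FPKM in each of the 4 deposited columns; each bar adds up to the whole class. The number of box C/D genes above 0 is 38, 15, 13 and 3 from left to right, and that of box H/ACA genes 33, 30, 28 and 9.

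Some values above 0 were as good as 0. In the MTR4-null nucleus Snord1a was listed at 1.17e-78 FPKM and Snord7 at 0.0079 FPKM, which left 36 box C/D members at 1 FPKM or more. Snora24 was listed at 3.73e-05 FPKM in the WT cytoplasm, which left 8 H/ACA members at 1 FPKM or more there. In the WT cytoplasm Snord17, at 0.442 FPKM, also lay under 1 FPKM. No other member lay between 0 and 1 FPKM in any column.

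Across the 4 columns the patterns of zeros differed as well. Listed at 0 in every column were 26 box C/D members and 2 H/ACA members, Snora19 and Snora35. Snora35 lies in the serotonin receptor gene Htr2c, which was itself at 0 in all 4 columns. Among the 26 were Snord64, Snord116, Snord116l1 and Snord116l2, box C/D RNAs of an imprinted region expressed in brain. The most frequent pattern of box C/D members, after 0 everywhere, was a value in the MTR4-null nucleus alone, shown by 21 members. Among H/ACA members it was a value in every column except the WT cytoplasm, shown by 19 members. Only 3 box C/D members (Snord15a, Snord17 and Snord22) and 7 H/ACA members (Snora28, Snora30, Snora47, Snora68, Snora78, Snora7a and Snora81) were above 0 in all 4 columns.

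The members above 0 spanned a wide range of levels. Box C/D values of at least 1 FPKM had a median of 196.7 FPKM in the MTR4-null nucleus and 586.2 FPKM in the WT nucleus, on 36 and 15 members. In the MTR4-null cytoplasm the median of the 13 members above 0 was 248.6 FPKM and the highest was Snord71 at 2266 FPKM. The 3 values in the WT cytoplasm were 0.442, 2.67 and 4.23 FPKM. Box H/ACA medians over members above 0 were 118.2 FPKM in MTR4-null and 154.4 FPKM in WT nuclei, and 108.8 FPKM in MTR4-null and 8.93 FPKM in WT cytoplasms. Thus the median of the members above 0 was lower in the MTR4-null nucleus than in the WT nucleus in both classes, over sets of genes that are not the same.

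Summed FPKM gave a different order. Box C/D members added up to 14265 FPKM in the MTR4-null nucleus against 12077 FPKM in the WT nucleus, and to 4765 FPKM in the MTR4-null cytoplasm against 7.34 FPKM in the WT cytoplasm. Box H/ACA members added up to 16872 FPKM in the MTR4-null nucleus against 12950 FPKM in the WT nucleus, and to 6741 FPKM in the MTR4-null cytoplasm against 232.9 FPKM in the WT cytoplasm. A single gene, Snora47, held 65.8% of the H/ACA sum in MTR4-null and 27.8% in WT nuclei, and 39.9% in MTR4-null and 65.6% in WT cytoplasms. Without it the nuclear H/ACA sums were 5776 FPKM in MTR4-null and 9343 FPKM in WT, so that their ratio was 0.618. The direction of the nuclear H/ACA sum therefore rested on Snora47. In the cytoplasm the sums without it were 4052 FPKM in MTR4-null and 80.1 FPKM in WT.

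**Figure D2:**
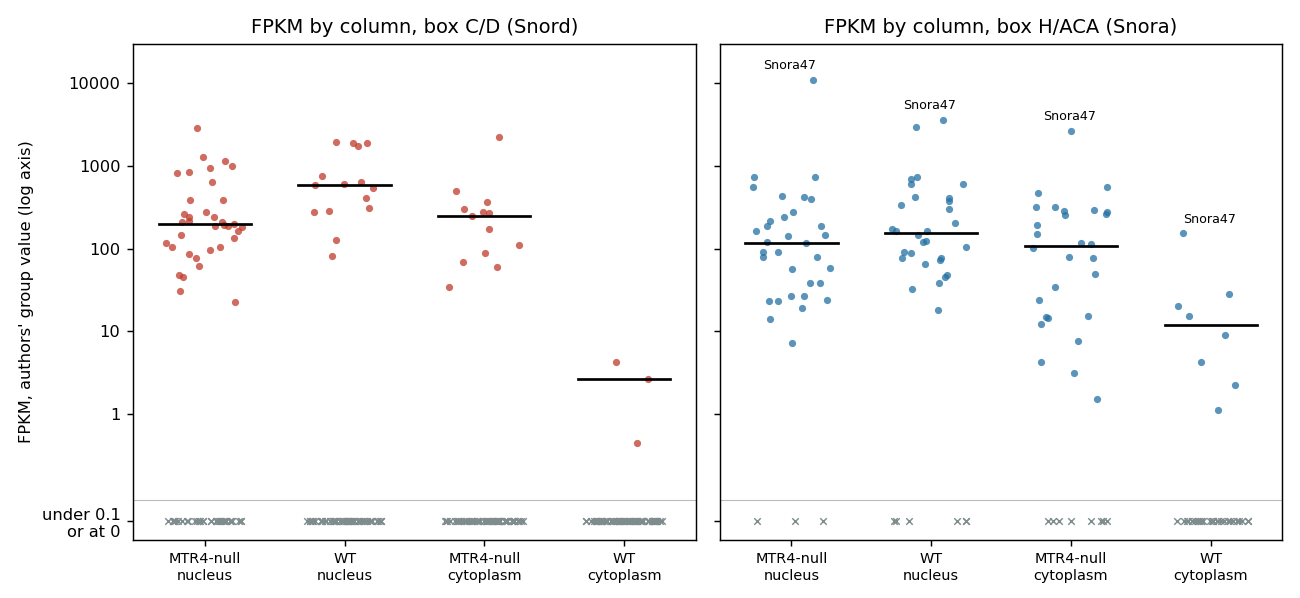
Each point is a gene, placed at its FPKM (log axis) in the 4 columns, with box C/D genes on the left and box H/ACA genes on the right; crosses at the bottom are genes under 0.1 FPKM or at 0, and black lines are medians of the points above them. Snora47 is the highest H/ACA point in every column, and the 3 box C/D points in the WT cytoplasm lie at or under 4.23 FPKM.

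How much 1 sequenced fragment adds to an FPKM depends on length, and the table holds traces of it. In the MTR4-null nucleus Snord100 and Snord2, both 68 nt in RefSeq and unlike in sequence, were listed at the same 105.1 FPKM. At that length Snord53 stood at 2 times this value (210.1 FPKM), Snord73a at 8 times (840.6 FPKM) and Snord90 at 11 times (1156 FPKM). Values of equal-length RNAs in that column thus formed a ladder of whole steps.

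The same held at other lengths. Snord11, Snord49b and the microRNA gene Mir3104, all 63 nt, shared 185.7 FPKM, and Snord12 and Snord34, both 66 nt, shared 389.4 FPKM. Snord55 and 3 microRNA genes of 78 nt shared 45.2 FPKM. Snord33 stood at 7 times the smallest value of its length, Snord92 at 5 times, Snord104 and Snord87 at 4 times, and Snord16a at 3 times. Only 0.407% of all genes at 1 FPKM or more in the MTR4-null nucleus shared their value with another gene.

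In the MTR4-null nucleus 29 box C/D members had at least 1 other small RNA gene of the same RefSeq length, and 22 of them lay on a whole step of the smallest value at that length, to within 0.01 step. Of 23 such H/ACA members 3 did (Snora2b, Snora31 and Snora17). The WT nucleus gave 2 of 5 box C/D and 6 of 17 H/ACA members, and the MTR4-null cytoplasm 1 of 7 and 4 of 12. The share over all small RNA genes is not given here. Since the classes also differ in length, these counts are not read as a trait of either class. A member taken as the smallest itself was counted when at least 1 other gene of its length lay on a whole step of it. Snord100, Snord12, Snord4a and Snord35a entered the count of MTR4-null nuclei this way. Snord55, Snora2b, Snora65 and Snora7a did so for WT nuclei, and Snora15 and Snora70 for MTR4-null cytoplasms. In the WT cytoplasm neither of the 2 members that could be compared, Snord22 and Snora47, lay on a whole step. The smallest value at a length need not be the worth of 1 fragment, since it may itself stand for several. Nor is it a sure upper bound. In the MTR4-null nucleus it was 6.15 FPKM at 84 nt, against 32.4 FPKM at 83 nt and 28.6 FPKM at 85 nt.

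At the lengths picked here the smallest value fell steeply with length. In the MTR4-null nucleus the smallest value was 185.7 FPKM at 63 nt, 105.1 at 68 nt, 45.2 at 78 nt, 32.4 at 83 nt and 8.05 at 112 nt. Between 63 and 112 nt a length 1.78 times as great thus went with a smallest value 23.1 times lower. Other lengths left this course, with smallest values of 389.4 FPKM at 66 nt, 184.0 at 81 nt, 161.7 at 116 nt and 218.7 at 126 nt. Levels in FPKM of short box C/D members and longer H/ACA members are therefore not on an equal footing, and a value of some 100 FPKM at 68 nt can stand for as little as a single fragment.

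**Figure D3:**
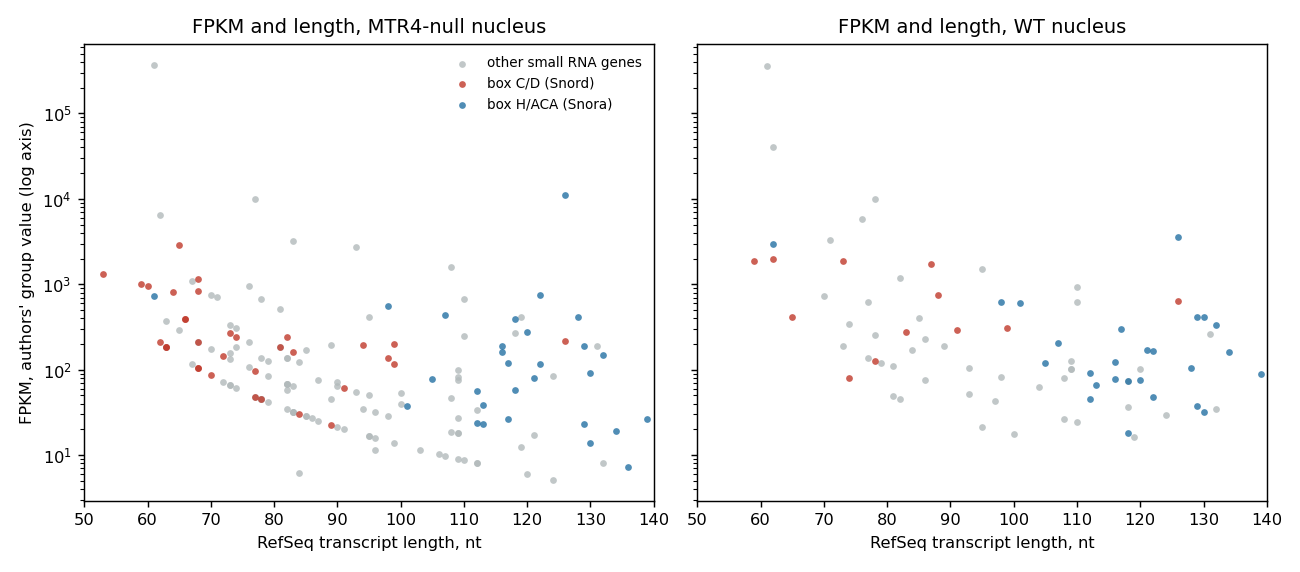
Points show the FPKM (log axis) of small RNA genes of at least 1 FPKM and under 140 nt against RefSeq length in the MTR4-null nucleus (left panel) and the WT nucleus (right panel), coloured by class. The lower edge of the cloud falls with length, being at 185.7 FPKM at 63 nt and at 8.05 FPKM at 112 nt in the MTR4-null nucleus, and most box C/D genes lie at shorter lengths than the H/ACA genes.

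The smallest value also differed between columns. At 7 of the 50 lengths with a value in both nuclei the smallest value in the MTR4-null nucleus was 0.354 times that in the WT nucleus, to within 0.1%, and this was the most frequent ratio. Between the MTR4-null nucleus and the MTR4-null cytoplasm the most frequent ratio was 2.52, at 7 of 51 lengths. Snord55, a guide of 28S ribosomal RNA methylation, had 45.2 FPKM in the MTR4-null nucleus against 127.6 FPKM in the WT nucleus, a ratio of 0.354. In both columns it stood at the smallest value of its length, and this length of 78 nt is among the 7 that gave 0.354. Snora5c had 37.9 FPKM in the MTR4-null nucleus against 15.0 FPKM in the MTR4-null cytoplasm, a ratio of 2.52. It was the only small RNA gene of 101 nt counted in each of these columns, and 101 nt is among the 7 lengths that gave 2.52. Neither ratio is therefore separate from the most frequent ratio that it equals. Snord92 and Snora41 had the same ratio of 0.590 between the nuclei, at 162 against 274 FPKM and at 38.7 against 65.6 FPKM. Differences of members near the smallest value of their length thus cannot be told apart from those of a few fragments on each side.

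Length also went with the number of zeros. The RefSeq median was 68 nt for box C/D members (range 45 to 221 nt, 68 genes with a length) and 119.5 nt for H/ACA members (range 56 to 198 nt). Within box C/D the 25 members with a length that were at 0 in every column had a median of 58 nt, and the 43 with a value had a median of 74 nt. Of the box C/D members under 60 nt 15 of 18 were at 0 in every column, as were 6 of 21 at 60 to 69 nt, 4 of 25 at 70 to 99 nt and 0 of 4 at 100 nt or more. All 4 box C/D members of at least 100 nt (Snord15a, Snord15b, Snord17 and Snord22) were above 0 in 3 or 4 columns, and so were 27 of the 32 H/ACA members of at least 100 nt. The 3 H/ACA members under 70 nt in RefSeq, Snora19, Snora20 and Snora61, were above 0 in 0, 2 and 1 columns. Class and length go together in this table, and their parts in the zeros cannot be told apart beyond these counts. The libraries were made from cDNA of 300 to 400 bp, longer than any snoRNA here, and the part of that choice in the zeros was not tested.

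**Figure D4:**
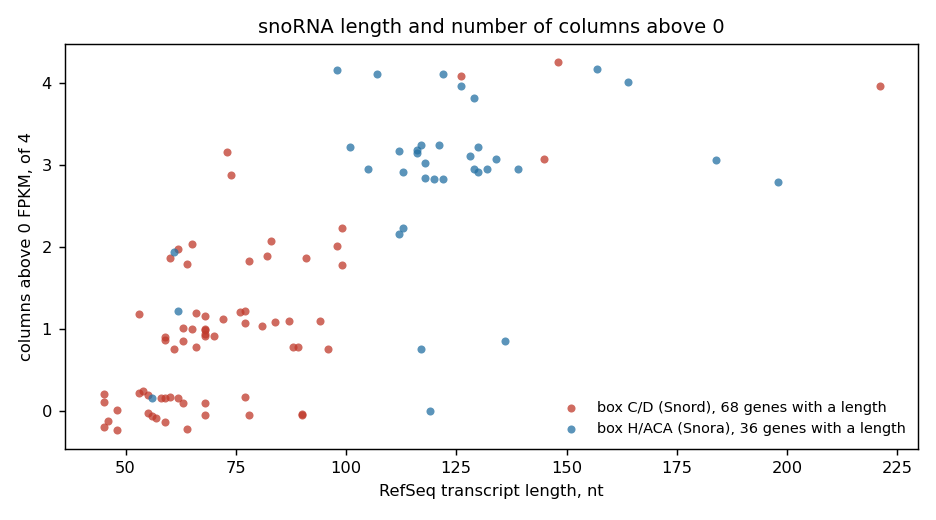
Points are snoRNA genes by RefSeq length (horizontal axis, nt) and by the number of the 4 columns in which they were above 0 FPKM (vertical axis, spread a little so that points do not hide each other). Box C/D genes of at least 100 nt sit at 3 or 4 columns among the H/ACA genes, and those under 60 nt sit mostly at 0.

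The first comparison asks what loss of MTR4 goes with in the nucleus. Differences were taken on log2(FPKM + 1), which understates those of low values, and members with at least 1 FPKM in at least 1 column were counted (41 box C/D, 34 H/ACA). Between the nuclei, 26 box C/D members were higher in MTR4-null by 2-fold or more and 11 were lower, against a background over all 14270 genes of 23.9% higher and 12.3% lower and a median of 0.21. Of the H/ACA members 13 were higher, 13 lower and 8 in between. Most of the box C/D count came from zeros, since 4 box C/D members were at 0 in the MTR4-null nucleus only and 27 in the WT nucleus only. Of these 27, Snord1a and Snord7 had values near 0 in the MTR4-null nucleus. The 21 box C/D members with a value in the MTR4-null nucleus alone, these 2 among them, could not be counted as lower. The 4 with a value in the WT nucleus alone could not be counted as higher. The count of 26 higher is therefore not on equal terms with the background.

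Box C/D members above 0 in both nuclei gave another picture. Of these 11 members 1 was higher, 7 were lower and 3 lay in between, with a median log2 difference of -1.48. The 29 H/ACA members above 0 in both had 9 higher, 12 lower and 8 in between, with a median of -0.69. Over the 13766 genes above 0 in both, 22.8% were higher and 12.0% lower, and the median was 0.19. The counts of box C/D members by zeros and by values above 0 thus pointed in opposite directions. The middle member of the 11 was Snord55, whose ratio was 0.354 and which stood at the smallest value of its length in both nuclei.

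**Figure D5:**
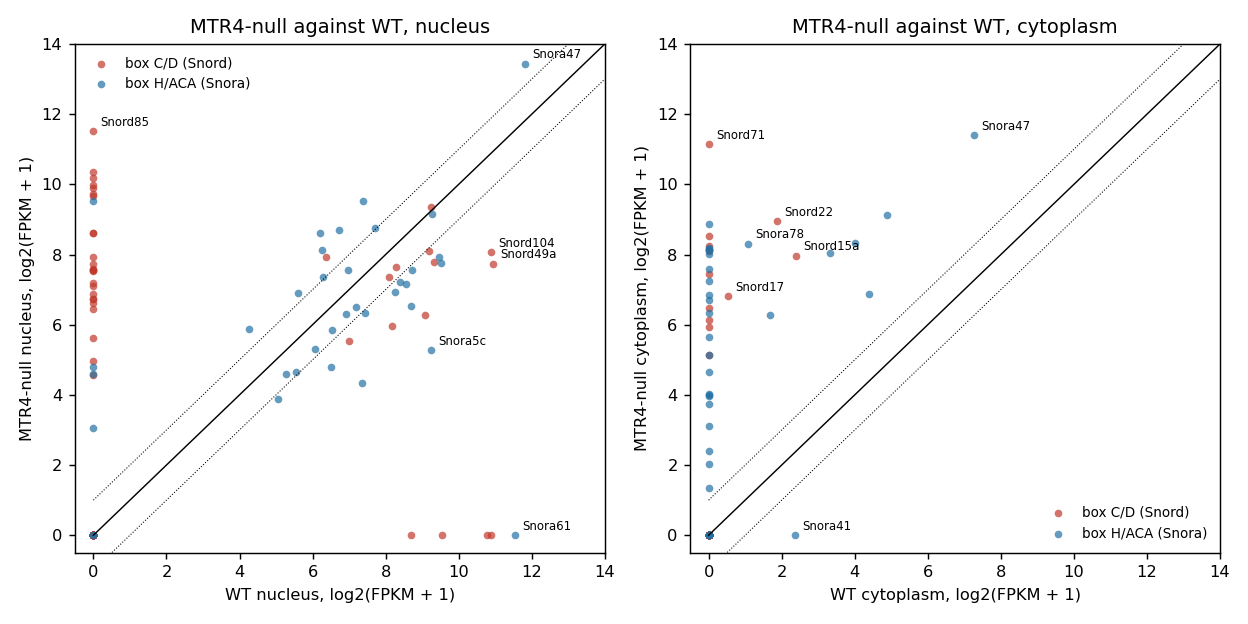
Each point is a snoRNA gene at log2(FPKM + 1) in MTR4-null (vertical axis) against WT (horizontal axis), for the nucleus (left panel) and the cytoplasm (right panel); the solid line marks equal values and dotted lines 2-fold. Points on the left edge are at 0 in WT, points on the bottom edge at 0 in MTR4-null, and in the cytoplasm nearly all points lie above the line.

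Among box C/D members with values in both nuclei, Snord49a, Snord104 and Snord15a had the largest lower values in MTR4-null. Snord49a had 212 FPKM in the MTR4-null nucleus against 1959 FPKM in the WT nucleus, and was at 0 in both cytoplasms. In both nuclei Snord49a stood at the smallest value of its length of 62 nt, and how many fragments it rests on is unknown. Snord104 had 266 FPKM in the MTR4-null nucleus and 1876 FPKM in the WT nucleus, a log2 difference of -2.81. It stood at 4 steps in MTR4-null and at 10 times the smallest value of 73 nt in WT. Snord15a, a guide of 28S ribosomal RNA methylation, had 76.2 FPKM in the MTR4-null nucleus and 536 FPKM in the WT nucleus, 7.03-fold lower in MTR4-null. Snord87 was the single member of this set at least 2-fold higher, at 245 FPKM in the MTR4-null nucleus and 81.1 FPKM in the WT nucleus. Snord17 was level between the nuclei, at 648 FPKM in MTR4-null and 602 FPKM in WT.

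Where one nucleus was at 0, the other could hold large values. Snord85 had 2908 FPKM in the MTR4-null nucleus and was listed at 0 in the WT nucleus, as were Snord37 at 1303 FPKM and Snord90 at 1156 FPKM. In the other direction 3 members listed at 0 in the MTR4-null nucleus were high in the WT nucleus, Snord110 at 1888 FPKM, Snord35b at 1744 FPKM and Snord123 at 747.6 FPKM. No fold is given for these. Snord85 stood at 10 times the value of Mir1956, which has the same length of 65 nt, and Snord90 at 11 steps. For Snord37 (53 nt), Snord110 (59 nt), Snord35b and Snord123 no other small RNA gene of the same length was counted in that column. No step could be read for them, and how many fragments they rest on is unknown.

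Of all 69 box C/D members, 27 were above 0 in the MTR4-null nucleus and at 0 in the WT nucleus. Among the 14 hosts with several box C/D members, 2 had this pattern in every member, 7 in some members only and 5 in none. Rpl13a, one of the 2, holds Snord32a, Snord33, Snord34 and Snord35a, RNAs known for a role in the response of mammalian cells to lipid stress. All 4 were above 0 in the MTR4-null nucleus, at 184, 241, 389 and 22.8 FPKM, and all 4 were at 0 in the WT nucleus. Snord32a, Snord34 and Snord35a stood at the smallest value of their lengths and Snord33 at 7 times that of its own. How many fragments each rests on is unknown. The host itself had 132 FPKM in the MTR4-null nucleus and 123 FPKM in the WT nucleus. Snord88a (145 FPKM) and Snord88c (30.4 FPKM), which share the host 2410002F23Rik, the other, were likewise above 0 in the MTR4-null nucleus and at 0 in the WT nucleus. In Wdr43, Snord53 had this pattern (210 FPKM in the MTR4-null nucleus), while Snord92 had 162 FPKM in the MTR4-null nucleus and 274 FPKM in the WT nucleus. Snhg12, a host of both classes, was split as well, since Snora44 was above 0 only in the MTR4-null nucleus (26.8 FPKM), Snora61 only in the WT nucleus (2995 FPKM), and Snord99 nowhere.

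In box H/ACA the nuclear differences went both ways at values well above 0. Snora34 had 394 FPKM in the MTR4-null nucleus against 73.0 FPKM in the WT nucleus, Snora28, a guide for 18S ribosomal RNA, 740 against 164 FPKM, and Snora21 417 against 104 FPKM. The first 2 are log2 differences of 2.42 and 2.16, and the last is 4.02-fold in FPKM. Lower in MTR4-null were Snora5c at 37.9 against 606 FPKM in WT, Snora52 at 19.3 against 163 FPKM, and Snora24 at 91.2 against 414 FPKM. Their log2 differences were -3.96, -3.02 and -2.17. Snora47 was 3.08-fold higher, at 11096 FPKM in the MTR4-null nucleus and 3606 FPKM in the WT nucleus. Snora68 was level, at 564 FPKM in MTR4-null and 613 FPKM in WT.

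Snora61 and Snora20 made up most of the H/ACA values set against a 0. Snora20 had 733 FPKM in the MTR4-null nucleus and 468 FPKM in the MTR4-null cytoplasm, and was at 0 in both WT columns. Both are among the 3 H/ACA members under 70 nt in RefSeq, although the GENCODE transcript of Snora61 shown above has 130 bases.

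In the cytoplasm the classes went the same way. Higher in MTR4-null than in WT cytoplasm by 2-fold or more were 13 of 41 box C/D and 28 of 34 H/ACA members, with 0 box C/D and 1 H/ACA member lower. The background over all genes was 15.0% higher and 21.4% lower. The member lower in MTR4-null was Snora41, at 0 in the MTR4-null cytoplasm and 4.19 FPKM in the WT cytoplasm. Of the 13 box C/D members 10 were at 0 in the WT cytoplasm, as were 21 of the 28 H/ACA members. The median over all genes was -0.26 here, and centring by the median log ratio, or rescaling to the sum of genes other than small RNA genes, turned the background from 2135 higher and 3047 lower to 3090 higher and 1088 lower with the one and to 3228 higher and 1071 lower with the other. The snoRNA counts were 13 box C/D and 28 H/ACA members higher under both.

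All 10 members above 0 in both cytoplasms were higher in MTR4-null. The background among genes above 0 in both was 14.3% higher and 22.1% lower. Snord22, which in frog is needed to process 18S ribosomal RNA, had 494 FPKM in the MTR4-null cytoplasm and 2.67 FPKM in the WT cytoplasm. Snord17 had 111 FPKM in the MTR4-null cytoplasm against 0.442 FPKM in the WT cytoplasm, and Snord15a 249 against 4.23 FPKM. Their log2 differences were 7.07, 6.29 and 5.58, with the WT values near or under the pseudocount for Snord17. Box H/ACA differences were smaller except for Snora78, with 317 FPKM in the MTR4-null cytoplasm and 1.13 FPKM in the WT cytoplasm. Snora7a had 263 FPKM in the MTR4-null cytoplasm and 8.93 FPKM in the WT cytoplasm, and Snora68 320 against 15.1 FPKM. Snora47 had 2688 FPKM in the MTR4-null cytoplasm and 153 FPKM in the WT cytoplasm, 17.6-fold. Snora28 had the smallest difference of the 7, at 116 against 20.04 FPKM or 5.80-fold.

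The largest cytoplasmic values set against a 0 in WT were those of Snord71 at 2266 FPKM, Snord23 at 369 FPKM and Snord45c at 299.5 FPKM in the MTR4-null cytoplasm. Snord45c was at 0 in both nuclei. In box H/ACA they were Snora20 at 468 FPKM, Snora74a at 293 FPKM and Snora33 at 284 FPKM.

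Other nuclear RNAs moved with this result. Of the 7 looked at, which were chosen after values were seen, the RNA of the RNase P ribozyme Rpph1 had 8822 FPKM in the MTR4-null cytoplasm against 156 FPKM in the WT cytoplasm, and the RNase MRP RNA Rmrp 11312 against 115 FPKM. The telomerase RNA Terc had 83.5 FPKM in the MTR4-null cytoplasm and 1.32 FPKM in the WT cytoplasm, and the Cajal body RNA Scarna2 100235 against 3428 FPKM. The long nuclear RNA Malat1 had 69.6 FPKM in the MTR4-null cytoplasm and 8.63 FPKM in the WT cytoplasm, and Kcnq1ot1 2.04 against 0.110 FPKM, whereas Neat1 was under 1 FPKM in both. MicroRNA genes summed to 29048 FPKM in the MTR4-null cytoplasm and 12992 FPKM in the WT cytoplasm, with 56 and 41 of 615 above 0. The part of nuclear RNA in the cytoplasmic samples in this result was not tested.

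Host transcripts gave other counts than the snoRNAs. Of the 70 host genes of 95 members that are in the table, 68 passed the filter. In the nucleus 17 hosts were higher in MTR4-null by 2-fold or more and 1 was lower, against 23.9% higher and 12.3% lower over all genes tested. The share of hosts that were higher was thus near that background, while the share that were lower was below it. The median log2 difference between the nuclei was 0.44 for hosts and 0.21 for all genes. In the cytoplasm 9 hosts were higher and 15 lower, against 15.0% and 21.4% over all genes, with a median log2 difference of -0.26, the value of all genes. Hosts were counted on values as deposited only. Centring took the genes lower between the cytoplasms from 3047 to 1088 of 14270, and rescaling to 1071. Zbed3, the host of Snora47, had 2600 FPKM in the MTR4-null cytoplasm against 4228 FPKM in the WT cytoplasm, while Snora47 was 17.6-fold higher. Snhg1, the host of Snord22, had 21.4 FPKM in the MTR4-null cytoplasm and 13.1 FPKM in the WT cytoplasm. Snx5, the host of Snord17, was 26.4 against 4.17 FPKM between MTR4-null and WT nuclei and 17.2 against 3.53 FPKM between the cytoplasms.

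Within WT oocytes the snoRNAs were nuclear wherever a value allowed the comparison. At least 2-fold higher in the WT nucleus than in the WT cytoplasm were 15 of 41 box C/D and 30 of 34 H/ACA members, and 0 of either class were lower, against a background of 12.4% higher and 4.71% lower. Those are all the members above 0 in the WT nucleus. Among those above 0 in both columns, 3 box C/D members had a median log2 difference of 7.46 and 9 H/ACA members one of 4.55, where 11.3% of all genes were higher and 4.47% lower. Snord17 had 602 FPKM in the WT nucleus against 0.442 FPKM in the WT cytoplasm, and Snora78 701 against 1.13 FPKM. Snora7a had the smallest difference, at 38.01 FPKM in the WT nucleus against 8.93 FPKM in the WT cytoplasm. Set against the 0 of the WT cytoplasm, Snora61 at 2995 FPKM and Snord49a at 1959 FPKM had the highest values in the WT nucleus.

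Within MTR4-null oocytes the compartments were closer for many members. Box C/D had 31 members higher in the nucleus than in the cytoplasm by 2-fold or more and 5 lower, and H/ACA had 20 higher and 4 lower, against a background of 17.0% higher and 1.84% lower. Most of the box C/D count came from zeros. Above 0 in the MTR4-null nucleus and at 0 in the MTR4-null cytoplasm were 26 box C/D and 5 H/ACA members, Snord1a and Snord7 with values near 0 among them. The 21 box C/D members with a value in the MTR4-null nucleus alone could not be counted as lower. All genes had a median of 0.52 here, and centring turned the background from 2428 higher and 262 lower to 826 higher and 647 lower, so that differences are best read relative to that shift. Of the 12 box C/D members above 0 in both columns 7 were higher, 4 lower and 1 in between, and of 28 H/ACA members 15 were higher, 4 lower and 9 in between. Their medians were 1.67 and 1.20, and among all genes above 0 in both 16.6% were higher and 1.69% lower.

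Members with more FPKM in the MTR4-null cytoplasm than in the MTR4-null nucleus were found in both classes. Snord15a had 76.2 FPKM in the MTR4-null nucleus and 249 FPKM in the MTR4-null cytoplasm, Snord23 116 against 369 FPKM, and Snord71 819 against 2266 FPKM. In box H/ACA Snora7a had 23.1 FPKM in the nucleus and 263 FPKM in the cytoplasm of MTR4-null oocytes, Snora31 56.3 against 281 FPKM, and Snora33 78.3 against 284 FPKM. At the other end Snord85 had 2908 FPKM in the MTR4-null nucleus against 173 FPKM in the MTR4-null cytoplasm, and Snora69 118 against 12.3 FPKM. Snord37, Snord90 and Snord69, at 1303, 1156 and 1003 FPKM in the MTR4-null nucleus, were at 0 in the MTR4-null cytoplasm.

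For the 10 members above 0 in all 4 columns the ratio of nucleus to cytoplasm was lower in MTR4-null than in WT oocytes in every case. On the log2 scale it was 2.53 in MTR4-null and 8.71 in WT for Snord17, -1.17 and 7.46 for Snord22, and -1.69 and 6.68 for Snord15a. Among the H/ACA members it was -0.40 in MTR4-null and 8.37 in WT for Snora78, and 2.66 and 2.97 for Snora28, which had the smallest gap. The WT cytoplasm enters both this result and the cytoplasmic comparison, which are therefore not separate observations. The share of all genes with a lower ratio in MTR4-null was not counted. Over all genes the median log2 difference of nucleus over cytoplasm was 0.52 in MTR4-null and -0.04 in WT.

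The genes for proteins that bind or process the snoRNAs were counted apart from the RNAs. Over all genes tested 23.9% were higher and 12.3% lower in the MTR4-null nucleus, and 15.0% higher and 21.4% lower in the MTR4-null cytoplasm, and the short lists that follow are to be read against these shares. The lists were counted on values as deposited only. Centring took the genes lower in the MTR4-null cytoplasm from 3047 to 1088 of 14270, and rescaling to 1071. Genes lower there by little more than 2-fold, such as Nop56 and Nop58, may therefore not stay lower by 2-fold. Of the 4 box C/D core proteins in the table none was 2-fold apart in the nucleus, and in the cytoplasm Nop56 (24.0 FPKM in MTR4-null against 50.4 FPKM in WT) and Nop58 (13.9 against 32.3 FPKM) were lower. Of the 4 H/ACA core proteins Dkc1, the pseudouridine synthase dyskerin, was lower in both, at 12.2 FPKM in the MTR4-null nucleus against 51.3 FPKM in the WT nucleus, and at 15.6 against 41.2 FPKM in the cytoplasm. Nhp2, Nop10 and Gar1 were less than 2-fold apart in both compartments.

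Of 11 assembly factors 4 were higher in the MTR4-null nucleus by 2-fold or more and 0 lower, beside 23.9% and 12.3% of all genes. They were Ruvbl1 (20.6 FPKM in MTR4-null against 2.93 FPKM in WT), Znhit3 (28.5 against 6.74 FPKM), Nufip1 (21.02 against 6.75 FPKM) and Zfp330 (28.2 against 9.51 FPKM). In the cytoplasm Znhit3 was higher, at 19.6 FPKM in MTR4-null and 5.52 FPKM in WT. Ruvbl2 (36.1 against 79.8 FPKM), Rpap3 (12.2 against 33.5 FPKM) and Znhit6 (3.30 against 10.6 FPKM) were lower.

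Of 14 genes for trimming of 3′ ends and for caps, Skiv2l2 among them, 2 were higher and 2 lower in the nucleus, and 2 were higher and 5 lower in the cytoplasm, beside 15.0% and 21.4% of all genes. Skiv2l2, the targeted gene, is among those lower in both compartments, so that its place in both counts was fixed in advance. Exosc10, the nuclear exosome ribonuclease that trims snoRNA ends, had 15.2 FPKM in the MTR4-null nucleus and 29.2 FPKM in the WT nucleus, and 10.2 against 40.2 FPKM in the cytoplasm. Parn, which removes short tails of adenosine from H/ACA RNAs, had 17.0 FPKM in the MTR4-null nucleus and 17.4 FPKM in the WT nucleus, and 10.6 against 24.1 FPKM in the cytoplasm. Toe1, another 3′ exonuclease, had 6.85 FPKM in the MTR4-null nucleus and 15.8 FPKM in the WT nucleus, and 11.6 against 4.28 FPKM in the cytoplasm. C1d (3.37 FPKM in MTR4-null against 0.873 FPKM in WT) and Gltscr2 (18.5 against 8.39 FPKM) were the 2 higher in the nucleus. Papd5, a poly(A) polymerase that acts on snoRNA ends (17.99 against 41.5 FPKM), and Zcchc7 (6.75 against 14.7 FPKM) were lower in the MTR4-null cytoplasm, and Tgs1, which methylates caps, was higher (4.73 against 1.47 FPKM).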

How the data were processed

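The authors deposited FPKM (fragments scaled by the length of the transcript and by all mapped fragments) in 1 column for each genotype and compartment. The submitters' processing notes name TopHat2 2.1.1, Cufflinks 2.2.1 and build mm9. The labels list 9 libraries, read as paired ends of 150 bp, but the table holds no values of single libraries, so that the planned linear model could not be run, and the depth of each library is unknown. A column is called a group value. A nameless last row, equal to the sum of the others, was left out.

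From these values, zeros were counted apart from values above 0. Differences were taken on log2(FPKM + 1), with a pseudocount of 1, for genes of at least 1 FPKM in at least 1 column (14270 genes), and counted from 2-fold. Zeros take no fold. Lengths are from the RefSeq table of build GRCm38, hosts and sequences from GENCODE M21 on GRCm38, and no coordinate was converted. The letters of 1 member are not reported here. Of 105 members 101 matched a single GENCODE gene, and 104 had a RefSeq length. Whole steps were read among small RNA genes of equal length under 140 nt.

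Members named in each class were the 5 highest above 0 in all columns. For each comparison these were the 3 largest differences in each direction from 100 FPKM, and the 3 highest values set against a 0. Members of the snoRNA processing group and of the protein lists at least 2-fold apart were named too, and other members were named after their values were seen. The members and lists were chosen with earlier results of these data known. Python 3.11.15, pandas 2.3.3, numpy 2.4.6 and matplotlib 3.10.9 were used, and the counting was tested on simulated data. Alternatives were a pseudocount of 0.1, no filter, centring by the median log ratio, rescaling to the sum of genes other than small RNA genes, and zeros read as under 0.01 or under 1 FPKM. The splits into members above 0 in both columns, and sums without Snora47, were added after seeing the data.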

Additional observations from a re-analysis of the deposited data

Results flagged for a closer look

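In all, 4 members above 0 in all columns were lower in the MTR4-null than in the WT nucleus and higher in the MTR4-null than in the WT cytoplasm, by at least 2-fold each way. The gap between the cytoplasmic and the nuclear log2 difference was 8.76 for Snora78, 5.97 for Snora81, 8.37 for Snord15a and 8.63 for Snord22. Snora81 had 143 FPKM in the MTR4-null nucleus against 375 FPKM in the WT nucleus. In the cytoplasm it had 76.7 FPKM in MTR4-null and 2.23 FPKM in WT. The difference between compartments was not tested, since each group has a single column. How many of all genes have this pattern was not counted. The gaps rest on low WT cytoplasm values, not far from the pseudocount of 1. These were 1.13 FPKM for Snora78, 2.23 FPKM for Snora81, 4.23 FPKM for Snord15a and 2.67 FPKM for Snord22.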

How the results depend on the processing

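Of 208 values of 56 results under the alternatives, 195 kept their direction and stayed within 1.5 times the value as deposited (medians compared as folds), 13 moved and 0 reversed. All counts of members higher, lower or at 0 were among the 195. The 13 are medians, and the cause was not tested except where zeros enter by construction. With a pseudocount of 0.1, medians of log2 differences were 9.93 for box C/D between the nuclei, 7.07 for H/ACA and 7.48 for box C/D members above 0 in both between the cytoplasms. They were 9.54 for H/ACA between the WT compartments and 8.93 for box C/D between the MTR4-null compartments. Without the filter, the box C/D median was 0 between the nuclei and 0 between the MTR4-null compartments, since members at 0 in every column enter. With rescaling, H/ACA medians between the cytoplasms were 4.87, and 4.90 above 0 in both. Between the MTR4-null compartments, medians of members above 0 in both were 1.06 with centring and 1.04 with rescaling for box C/D, and 0.59 and 0.58 for H/ACA. No paired analysis was possible because the deposited columns are group values without replicate numbers, and leaving out a library could not be run for the same reason. Depth is unknown, and the steps show that values of short members can rest on few fragments.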
